A study of Homo sapiens with 6 samples.

Results

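The genes described here encode membrane carriers of amino acids, small peptides and chemically related molecules. They were chosen by name: every gene whose single symbol in the array annotation belongs to the solute carrier families SLC1, SLC3, SLC6, SLC7, SLC15, SLC36, SLC38 or SLC43, with the cystine carrier SLC7A11 left out. Of 19775 genes with a probe set of their own on the array, 59 met this rule, and each was read from its brightest probe set. A filter on dim probe sets kept 32 of the 59 among 12413 genes tested. It asked for an intensity at or above the array median in at least 2 of the 6 arrays.

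RNA came from VCaP, a prostate cancer cell line grown from a vertebral metastasis that carries the TMPRSS2-ERG gene fusion. Cells carried PRMT5 shRNA 1 (2 arrays), PRMT5 shRNA 2 (2 arrays) or NTC shRNA, which the labels call the control (2 arrays). All 3 groups received 100 ng/ml doxycycline for 3 days, and all were grown in serum-containing DMEM with added non-essential amino acids. Untreated cells were not analysed here, and whether each line was a clone or a pool is not given in the sources used here. PRMT5 encodes an arginine methyltransferase that places symmetric dimethyl marks on histones and splicing proteins.

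Amino acid carriers differ in what drives them. SLC1, SLC6 and many SLC38 proteins use sodium to move their substrates into the cell. SLC15 proteins and SLC36A1 use protons, and many SLC7 proteins trade an amino acid for another. Several SLC7 light chains reach the surface only when paired with a heavy chain, SLC3A2 (4F2hc, CD98) or SLC3A1 (rBAT). Carriers of the lysosome, among them SLC38A9 and SLC36A1, tie the amino acids held there to the growth kinase mTORC1. Not every family member carries amino acids: SLC6A8 moves creatine, SLC6A6 taurine and SLC43A3 purine nucleobases. When amino acids are short, the transcription factor ATF4, paired with C/EBP proteins, raises several carriers through a short response element in or near their promoters.

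That element, TGATGNAA, was searched on both strands of promoters from RefSeq (GRCh38.p14), each taken from 250 bases before to 50 bases after a gene's start. The E-box CACGTG, bound by factors of the MYC and TFEB type, was searched likewise. Promoters were found for 45 of the 59 genes and for 27 of the 32 tested. Of these 27, TGATGNAA stood in the promoters of 5 (SLC1A4, SLC1A5, SLC38A1, SLC3A2 and SLC7A1), and 4.46% of all 27305 genes with a promoter held it. CACGTG stood in those of 6 (SLC1A5, SLC36A1, SLC38A7, SLC43A1, SLC7A5 and SLC7A8), and 8.77% of all these genes held it (3.62% and 7.26% of all 35116 promoters, for TGATGNAA and CACGTG). A match is a run of letters and not a shown binding site. The windows with TGATGNAA, or its reverse complement, are printed 5′ to 3′ on the gene's strand with the element in capitals, since they hold genes that went in different directions.
SLC3A2, chr11:62881726-62881748, plus strand: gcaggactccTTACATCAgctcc
SLC1A4, chr2:64989382-64989409, plus strand: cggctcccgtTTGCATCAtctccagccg
SLC38A1, chr12:46266503-46266530, minus strand: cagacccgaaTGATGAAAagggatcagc
SLC1A5, chr19:46784894-46784921, minus strand: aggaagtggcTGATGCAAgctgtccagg
SLC7A1, chr13:29595664-29595691, minus strand: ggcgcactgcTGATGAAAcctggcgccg
Among these 5 genes SLC3A2 was higher after PRMT5 knockdown with both hairpins averaged, SLC1A4 and SLC38A1 were lower, and SLC1A5 and SLC7A1 were not called. The E-box windows of SLC36A1, SLC7A5, SLC7A8 and SLC43A1 are shown because the first 3 genes were higher and the last lower, with CACGTG in capitals.
SLC36A1, chr5:151447550-151447575, plus strand: ctcaagggagCACGTGacctcggcct
SLC36A1, chr5:151447585-151447610, plus strand: gcggtgggatCACGTGatgaggtccg
SLC7A5, chr16:87869622-87869647, minus strand: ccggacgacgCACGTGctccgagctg
SLC7A8, chr14:23154507-23154532, minus strand: caattagaaaCACGTGctcagttcct
SLC43A1, chr11:57515799-57515824, minus strand: gcgggcgagtCACGTGcgcgtgaaac

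Values are MAS5 intensities as deposited, and only the same probe set is compared between arrays. Group differences were tested with limma on log2(intensity + 16), with Benjamini-Hochberg adjustment over all 12413 genes and a call at an adjusted p under 0.05. Every log2 difference is on that scale, which understates the change of dim genes. The labels do not say that the 2 arrays of a group came from separate cultures, so the p-values rest on the scatter of these 6 arrays, which may be technical. The knockdown itself was visible in every array: PRMT5 read 135.6 and 133.8 with shRNA 1, 291.2 and 321.0 with shRNA 2, and 809.8 and 880.5 with NTC shRNA. PRMT5 was thus at 15.9% of the NTC mean with shRNA 1 and at 36.2% with shRNA 2, and the hairpins differ in depth of knockdown.

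Array medians ran between 14.8 and 16.4, and replicate arrays correlated at 0.996 to 0.997. All 8 luminal prostate markers measured were at or above the median in all 6 arrays. Their summed intensity was 14138 to 14516 with shRNA 1, 14157 to 15353 with shRNA 2 and 12402 to 12891 with NTC shRNA. Its members went both ways with the hairpins averaged, 4 higher (KLK3, KLK2, KRT8 and KRT18) and 2 lower (HOXB13 and TMPRSS2), with KLK3 at 2587.2 and 2665.6 with shRNA 1, 2674.3 and 2464.8 with shRNA 2, and 1186.4 and 1168.9 with NTC shRNA. Of 6 stromal, endothelial and immune markers, 5 were below the filter (COL1A2, DCN, PECAM1, PTPRC and CD3E), and the list summed to 43.5 to 56.1 with shRNA 1, 57.2 to 72.3 with shRNA 2 and 51.4 to 57.7 with NTC shRNA. Of 2 basal markers KRT5 was below the filter, and their sum was 27.9 to 30.7 with shRNA 1, 43.9 to 54.4 with shRNA 2 and 38.3 to 51.7 with NTC shRNA. Of 5 neuroendocrine and neuronal markers SLC17A6 and SLC32A1 were below it, and their sum was 500.1 to 535.3 with shRNA 1, 641.2 to 702.1 with shRNA 2 and 623.6 to 633.9 with NTC shRNA. In a culture of this kind, fewer cells making a transcript and less transcript per cell cannot be told apart.

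After PRMT5 knockdown, with both hairpins averaged, 18 of the 32 tested carriers were called: 8 were higher than with NTC shRNA and 10 were lower. Over all genes tested, 32.4% were called, 15.4% higher and 17.0% lower, against 56.2% of the carriers. The higher group held the peptide carriers SLC15A2 and SLC15A1, the CD98 heavy chain SLC3A2 with its light chains SLC7A5 and SLC7A8, the lysosomal carriers SLC38A9 and SLC36A1, and SLC7A14. The lower group held SLC38A10, SLC38A11, SLC1A2, SLC7A6, SLC3A1, SLC43A1, SLC36A4, SLC6A8, SLC1A4 and SLC38A1.

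The carriers' median log2 difference was −0.08, against −0.01 over all genes tested, and the median absolute difference was 0.28, against 0.14. All 4 knockdown arrays lay on one side of both NTC arrays for 20 carriers, 9 above and 11 below, and for 39.2% of all genes tested. SLC7A14 reached the array median only in the 4 knockdown arrays and SLC7A5 only in the 2 shRNA 1 arrays. They passed the filter through the group where they were high and so had to differ, which is why these counts support nothing further. With no filter, 10 of all 59 carriers were called higher and 10 lower, where 17.3% of all 19775 genes were called, 8.43% higher and 8.88% lower. Only SLC15A2 and SLC7A14 were called with a difference of at least 1 on the log2 scale, a size that 2.04% of all genes tested reached.

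**Figure D1:**
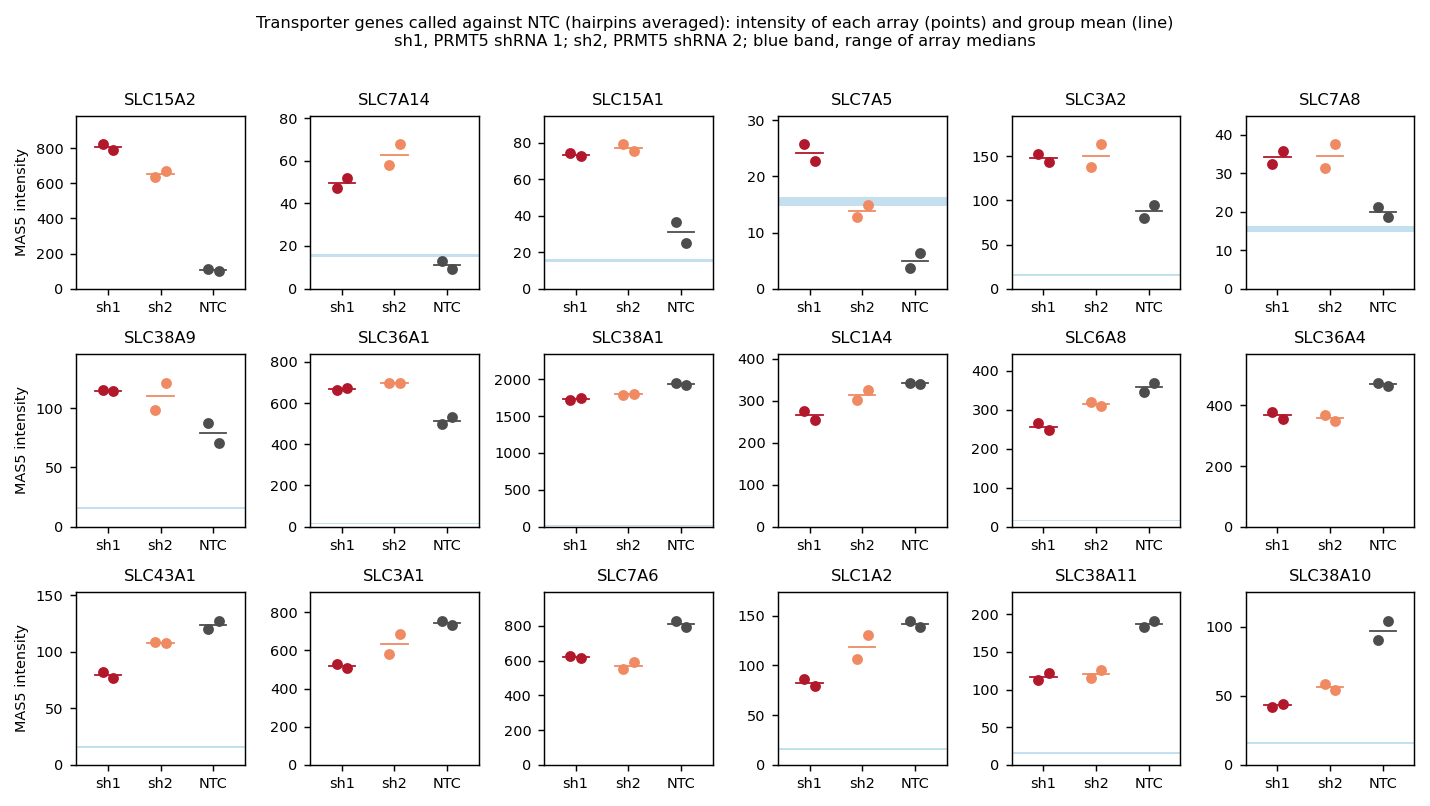
Intensity of each array (points) and group mean (line) for the 18 carriers called with both hairpins averaged, on a linear axis from 0 for each gene. PRMT5 shRNA 1, PRMT5 shRNA 2 and NTC shRNA run left to right and the blue band spans the array medians, 14.8 to 16.4. In every panel all 4 knockdown arrays lie on one side of the 2 NTC arrays, and SLC15A2 shows the widest gap, 638.7 or more with either PRMT5 hairpin and 111.8 or less with NTC shRNA.

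The proton-coupled peptide carriers gave the largest difference. SLC15A2 (PEPT2), the high-affinity carrier that recovers di- and tripeptides in the kidney, read 822.3 and 791.8 with shRNA 1, 638.7 and 670.1 with shRNA 2, and 111.8 and 98.3 with NTC shRNA. Knockdown and NTC arrays were far apart, and the shRNA 1 arrays were above the shRNA 2 arrays. Mean intensity was 807 ± 21.6 with shRNA 1, 654 ± 22.2 with shRNA 2 and 105 ± 9.55 with NTC shRNA (SD, n = 2 each), or 7.69- and 6.23-fold the NTC mean. The averaged log2 difference was 2.62 ± 0.07 (SE; limma adjusted p = 1.05e-09).

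Its other kept probe sets, fitted together with all 23920 kept probe sets, went the same way. The second differed by 2.17 (adjusted p = 2.29e-08) and the dimmest by 0.67 (adjusted p = 7.25e-04). The dimmest read 21.9 and 27.5 with shRNA 1, 10.4 and 12.7 with shRNA 2, and 5.2 and 4.9 with NTC shRNA. It passed the filter through the shRNA 1 arrays alone, where it was high, so its call had help from the filter. The promoter of SLC15A2 is shown whole because no other carrier differed as much, and neither motif was found in it.
SLC15A2, chr3:121894151-121894450, plus strand: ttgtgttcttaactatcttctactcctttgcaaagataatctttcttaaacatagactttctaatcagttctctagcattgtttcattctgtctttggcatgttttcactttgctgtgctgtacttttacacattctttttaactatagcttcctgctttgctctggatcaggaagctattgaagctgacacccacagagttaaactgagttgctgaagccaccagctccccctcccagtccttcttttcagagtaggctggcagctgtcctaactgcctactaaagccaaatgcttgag
SLC15A1 (PEPT1), the peptide carrier of the intestinal brush border, read 74.5 and 72.6 with shRNA 1, 79.1 and 75.4 with shRNA 2, and 36.6 and 25 with NTC shRNA. All 4 knockdown arrays exceeded both NTC arrays, and the hairpins were close to each other, the shRNA 2 arrays slightly above the shRNA 1 arrays. The log2 difference averaged over the hairpins was 0.98 ± 0.11 (SE; limma adjusted p = 5.75e-05). SLC15A4, a histidine and peptide carrier of the endolysosome, was not called (−0.02 ± 0.06; adjusted p = 0.852). SLC15A3 was below the filter.

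SLC3A2, the heavy chain that brings several SLC7 exchangers to the surface, read 152.8 and 144.2 with shRNA 1, 137.9 and 163.6 with shRNA 2, and 80.2 and 94.9 with NTC shRNA. Its knockdown arrays were all above the NTC arrays. The means were 148 ± 6.08 with shRNA 1, 151 ± 18.2 with shRNA 2 and 87.5 ± 10.4 with NTC shRNA (SD, n = 2 each), and the averaged log2 difference was 0.68 ± 0.09 (limma adjusted p = 3.11e-04). The promoter of SLC3A2 that holds the ATF4-type element is shown whole, one of several the table lists, with the element in capitals.
SLC3A2, chr11:62881449-62881748, plus strand: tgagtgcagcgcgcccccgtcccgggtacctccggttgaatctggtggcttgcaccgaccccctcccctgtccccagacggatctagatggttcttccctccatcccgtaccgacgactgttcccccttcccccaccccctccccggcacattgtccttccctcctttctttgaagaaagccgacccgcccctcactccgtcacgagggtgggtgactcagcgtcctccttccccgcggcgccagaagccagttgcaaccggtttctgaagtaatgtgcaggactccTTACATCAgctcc

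SLC7A5 (LAT1), which with SLC3A2 takes up leucine and other large neutral amino acids, was dim in every array. It read 25.7 and 22.8 with shRNA 1, 12.7 and 14.9 with shRNA 2, and 3.6 and 6.4 with NTC shRNA. All knockdown arrays were above both NTC arrays, and the NTC and shRNA 2 arrays were below their array medians. SLC7A5 thus passed the filter through the shRNA 1 arrays alone, where it was high. With the hairpins averaged, the log2 difference was 0.72 ± 0.11 (limma adjusted p = 4.22e-04, or 0.00106 with no filter). It was 1.73 with a pseudocount of 1 and 0.26 with a pseudocount of 64, so its sign and call held in both while its size did not. SLC7A5 has near-identical pseudogene copies, and which of them the probe set also reads was not tested. Its promoter, with the E-box in capitals, reads as follows.
SLC7A5, chr16:87869458-87869757, minus strand: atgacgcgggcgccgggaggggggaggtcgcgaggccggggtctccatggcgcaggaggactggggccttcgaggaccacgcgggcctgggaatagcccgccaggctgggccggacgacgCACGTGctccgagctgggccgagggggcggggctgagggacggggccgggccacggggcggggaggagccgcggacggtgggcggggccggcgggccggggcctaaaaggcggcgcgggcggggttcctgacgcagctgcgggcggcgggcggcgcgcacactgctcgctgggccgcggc

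SLC7A8 (LAT2), another light chain of SLC3A2 for neutral amino acids, read 32.5 and 35.9 with shRNA 1, 31.5 and 37.5 with shRNA 2, and 21.1 and 18.7 with NTC shRNA. Both hairpins were above the control and overlapped each other. The averaged log2 difference was 0.49 ± 0.10 (limma adjusted p = 0.00357), and a separate probe set gave 0.46 (adjusted p = 0.00434 over the kept probe sets). A further, dimmer one gave 0.31 and was not called (adjusted p = 0.07).

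SLC7A6 (y+LAT2), an SLC3A2 light chain that exports arginine in exchange for glutamine, went the other way. It read 625.7 and 613.5 with shRNA 1, 550.2 and 590.8 with shRNA 2, and 829.8 and 795.1 with NTC shRNA. No knockdown array reached the NTC arrays, and the averaged log2 difference was −0.44 ± 0.06 (limma adjusted p = 1.75e-04). All 3 kept probe sets of SLC7A6 were called lower, at −0.44, −0.43 and −0.52. SLC3A2 was described above with SLC7A5 and SLC7A8. The remaining partners SLC7A7 and SLC7A10 were below the filter.

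SLC3A1, the heavy chain of the cystine and dibasic amino acid carrier that is defective in cystinuria, read 527.2 and 505.6 with shRNA 1, 579.9 and 686.7 with shRNA 2, and 756.8 and 732.0 with NTC shRNA. Values were lowest with shRNA 1 and highest with NTC shRNA, without overlap. Averaged over the hairpins, the log2 difference was −0.37 ± 0.07 (limma adjusted p = 0.00218). Its partner SLC7A9 read 21.9 and 21.2 with shRNA 1, 26.2 and 25.9 with shRNA 2, and 18.9 and 21.1 with NTC shRNA. SLC7A9 was not called (0.14 ± 0.09; adjusted p = 0.269), although its 4 knockdown arrays were above both NTC arrays.

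SLC7A14, a relative of the cationic amino acid carriers that is linked to inherited retinal degeneration, read 47.0 and 52.1 with shRNA 1, 58.0 and 67.6 with shRNA 2, and 12.8 and 9.2 with NTC shRNA. Both NTC arrays lay below their array medians and all knockdown arrays well above. The log2 difference averaged over the hairpins was 1.41 ± 0.10 (limma adjusted p = 2.21e-06), with 2.26 at a pseudocount of 1 and 0.68 at 64. The arginine carriers SLC7A1 and SLC7A2 were bright in every array, 1731.2 or more, and were not called (−0.04 ± 0.04 and −0.01 ± 0.06; adjusted p = 0.517 and 0.895).

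Among carriers tied to lysosomal amino acid sensing, SLC38A9, an arginine sensor that acts on mTORC1, read 115.2 and 114.4 with shRNA 1, 98.9 and 121.7 with shRNA 2, and 87.4 and 70.5 with NTC shRNA. Its knockdown arrays were above the NTC arrays, with a wide spread within shRNA 2 and within NTC. The averaged log2 difference was 0.44 ± 0.10 (limma adjusted p = 0.00809), and without NTC replicate 2 it was 0.31 and no longer called (adjusted p = 0.116). A dimmer SLC38A9 probe set gave 0.15 with the hairpins averaged and was not called (limma adjusted p = 0.295 over the kept probe sets). SLC36A1 (PAT1), a proton-coupled carrier of small neutral amino acids, read 663.3 and 673.1 with shRNA 1, 695.9 and 699.5 with shRNA 2, and 499.6 and 530.4 with NTC shRNA. All knockdown arrays were above both NTC arrays, and the hairpins lay close to each other. On the log2 scale the averaged difference was 0.40 ± 0.06 (limma adjusted p = 3.02e-04).

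SLC36A4 (PAT4), its relative for proline and tryptophan, read 377.2 and 356.2 with shRNA 1, 369.6 and 349.1 with shRNA 2, and 475.3 and 463.7 with NTC shRNA. It was lower with both hairpins, by −0.36 ± 0.06 averaged (limma adjusted p = 0.00132), and a second probe set gave −0.57 (adjusted p = 0.005 over the kept probe sets). SLC38A7, a glutamine carrier of the lysosome, was not called (−0.02 ± 0.11; adjusted p = 0.892).

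The SLC38 family had 11 genes, 8 of them tested, with 1 higher and 3 lower. SLC38A10, one of its less studied members, read 42.1 and 43.9 with shRNA 1, 58.6 and 53.9 with shRNA 2, and 90.0 and 104.4 with NTC shRNA. The arrays did not overlap and the averaged log2 difference was −0.79 ± 0.09 (limma adjusted p = 8.44e-05). A second probe set of SLC38A10 read 24.9 and 28.3 with shRNA 1, 39.5 and 42.9 with shRNA 2, and 30.5 and 29.3 with NTC shRNA. It gave 0.10 and was not called (adjusted p = 0.436 over the kept probe sets), so the lower level of SLC38A10 rests on 1 probe set.

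SLC38A11, likewise little studied, read 112.6 and 122.0 with shRNA 1, 115.6 and 125.6 with shRNA 2, and 182.8 and 191.7 with NTC shRNA. Both hairpins lay at the same lower level, and the averaged log2 difference was −0.59 ± 0.08 (limma adjusted p = 2.34e-04). SLC38A1 (SNAT1), a sodium-coupled glutamine carrier, read 1722.2 and 1748.9 with shRNA 1, 1782.2 and 1802.5 with shRNA 2, and 1953.8 and 1914.9 with NTC shRNA. The arrays were ordered without overlap but the difference was small, −0.13 ± 0.04 (limma adjusted p = 0.0404). That call was lost without any one of the 2 shRNA 1 or the 2 NTC arrays, with adjusted p = 0.0732 to 0.263.

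SLC38A2 (SNAT2), its neighbour on the chromosome and the family member best known to rise when amino acids are short, read 2013.1 and 2076.3 with shRNA 1, 2127.1 and 2143.4 with shRNA 2, and 2304.8 and 2229.4 with NTC shRNA. Its knockdown arrays were all below the NTC arrays, but it was not called (−0.12 ± 0.04; adjusted p = 0.0636). SLC38A6 and SLC38A12 were not called (−0.15 ± 0.08 and −0.02 ± 0.10; adjusted p = 0.188 and 0.872).

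Of the 7 SLC1 genes, 4 were tested, and 2 were called lower and 2 not called. SLC1A2 (EAAT2), the main glutamate carrier of astrocytes, read 85.8 and 79.0 with shRNA 1, 106.4 and 130.4 with shRNA 2, and 144.9 and 138.7 with NTC shRNA. Averaged over the hairpins, the log2 difference was −0.46 ± 0.09 (limma adjusted p = 0.00342). As the mean over its probe sets it was −0.14 and not called (adjusted p = 0.148). SLC1A4 (ASCT1), an exchanger of alanine, serine and cysteine, read 275.8 and 254.8 with shRNA 1, 302.3 and 325.2 with shRNA 2, and 343.2 and 339.2 with NTC shRNA. Its averaged log2 difference was −0.23 ± 0.07 (limma adjusted p = 0.0234).

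The call of SLC1A4 depended on single arrays and on the probe set. Leaving out shRNA 1 replicate 2 gave −0.20 (adjusted p = 0.0713), leaving out NTC replicate 1 gave −0.22 (adjusted p = 0.138) and leaving out NTC replicate 2 gave −0.24 (adjusted p = 0.11). Without probe sets that may match several transcripts it was −0.04 (adjusted p = 0.844). SLC1A5 (ASCT2), the exchanger through which many tumour cells take up glutamine, read 175.4 and 174.9 with shRNA 1, 186.0 and 144.8 with shRNA 2, and 154.0 and 168.2 with NTC shRNA. The groups overlapped and it was not called (0.07 ± 0.10; adjusted p = 0.618).

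SLC43A1 (LAT3), a carrier of branched-chain amino acids first described as a gene overexpressed in prostate cancer, read 81.9 and 77.2 with shRNA 1, 108.8 and 107.7 with shRNA 2, and 120.3 and 127.7 with NTC shRNA. The averaged log2 difference was −0.36 ± 0.08 (limma adjusted p = 0.00575), and −0.32 without NTC replicate 2 (adjusted p = 0.0724). Its relatives SLC43A2 (LAT4) and SLC43A3 were not called (−0.12 ± 0.14 and −0.15 ± 0.09; adjusted p = 0.534 and 0.214).

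The SLC6 family, best known for sodium-driven uptake of neurotransmitters, had 18 genes, of which 3 passed the filter. SLC6A8, the creatine carrier, read 264.8 and 247.4 with shRNA 1, 319.5 and 308.5 with shRNA 2, and 345.1 and 369.8 with NTC shRNA. It was called lower (−0.32 ± 0.07; limma adjusted p = 0.00446), but not without NTC replicate 2 (−0.27; adjusted p = 0.0676). SLC6A8 has a near-identical pseudogene copy whose transcripts the probe set may share. The taurine carrier SLC6A6 and the GABA carrier SLC6A11 were not called (−0.25 ± 0.11 and −0.04 ± 0.09; adjusted p = 0.12 and 0.74).

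The 27 genes below the filter read at most 24.7 in any array. They were SLC1A3, SLC1A6, SLC1A7, SLC6A2, SLC6A3, SLC6A4, SLC6A5, SLC6A7, SLC6A9, SLC6A12, SLC6A13, SLC6A14, SLC6A15, SLC6A16, SLC6A17, SLC6A18, SLC6A19, SLC6A20, SLC7A3, SLC7A4, SLC7A7, SLC7A10, SLC7A13, SLC15A3, SLC38A3, SLC38A4 and SLC38A5. Of these, 25 were under the median of every array, and SLC1A7 and SLC6A17 reached it in 1 array. With no filter, SLC1A7, SLC38A4 and SLC6A20 were also called with both hairpins averaged, all at intensities of 21.4 or less.

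The hairpins were also set against NTC shRNA one at a time. With shRNA 1, 21 of the 32 carriers were called against NTC shRNA, 8 higher and 13 lower, where 39.3% of all genes tested were called, 16.2% higher and 23.1% lower. With shRNA 2, 12 were called, 8 higher and 4 lower, where 21.4% of all genes tested were called, 13.1% higher and 8.39% lower. With shRNA 1 the arrays did not overlap those of NTC shRNA for 26 carriers, 10 above and 16 below, and for 72.3% of all genes tested, 31.1% above and 41.2% below. With shRNA 2 they did not overlap for 24 carriers, 10 above and 14 below, and for 59.8% of all genes tested, 32.2% above and 27.6% below. These comparisons share their NTC arrays, so the values of each are given side by side.

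SLC15A2 had 2.77 with shRNA 1 and 2.47 with shRNA 2, and SLC7A14 had 1.28 with shRNA 1 and 1.55 with shRNA 2. SLC15A1 had 0.95 with shRNA 1 and 1.01 with shRNA 2, and SLC3A2 had 0.67 with shRNA 1 and 0.69 with shRNA 2. SLC7A5 stood apart with 0.94 with shRNA 1 and 0.51 with shRNA 2. SLC7A8 had 0.48 with shRNA 1 and 0.49 with shRNA 2, SLC38A9 had 0.47 with shRNA 1 and 0.41 with shRNA 2, and SLC36A1 had 0.37 with shRNA 1 and 0.43 with shRNA 2. All of these differences were called higher. Among the lower carriers, SLC38A10 had −0.94 with shRNA 1 and −0.65 with shRNA 2, SLC38A11 had −0.61 with shRNA 1 and −0.57 with shRNA 2, SLC7A6 had −0.38 with shRNA 1 and −0.50 with shRNA 2, and SLC36A4 had −0.34 with shRNA 1 and −0.37 with shRNA 2, all called.

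Called lower with shRNA 1 were also SLC1A1, SLC1A2, SLC1A4, SLC3A1, SLC6A8, SLC38A1, SLC38A2, SLC43A1 and SLC43A3, none of which was called with shRNA 2. Whether the hairpins differed was tested directly, as given further on. Their log2 differences with shRNA 1 ran between −0.68 (SLC1A2) and −0.15 (SLC38A2). The calls of SLC38A1, SLC38A2 and SLC43A3 with shRNA 1 were lost without any one of the shRNA 1 or NTC arrays, at adjusted p = 0.0578 to 0.265. Single arrays also decided calls of other carriers. With shRNA 1, SLC7A8 was 0.43 without shRNA 1 replicate 2 (adjusted p = 0.0517), SLC38A9 was 0.34 without NTC replicate 2 (adjusted p = 0.0953) and SLC1A4 was −0.29 without shRNA 1 replicate 2 (adjusted p = 0.0533). With shRNA 2, leaving out shRNA 2 replicate 2 ended the calls of SLC7A5 (0.45; adjusted p = 0.0705), SLC7A8 (0.40; adjusted p = 0.0673) and SLC38A9 (0.28; adjusted p = 0.161). Leaving out NTC replicate 1 ended that of SLC7A5 (0.41; adjusted p = 0.0982), and leaving out NTC replicate 2 ended those of SLC7A8 (0.44; adjusted p = 0.0731) and SLC38A9 (0.28; adjusted p = 0.224). Without shRNA 2 replicate 2, by contrast, SLC1A2 (−0.37; adjusted p = 0.0436) and SLC3A1 (−0.35; adjusted p = 0.00998) were called with shRNA 2.

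**Figure D2:**
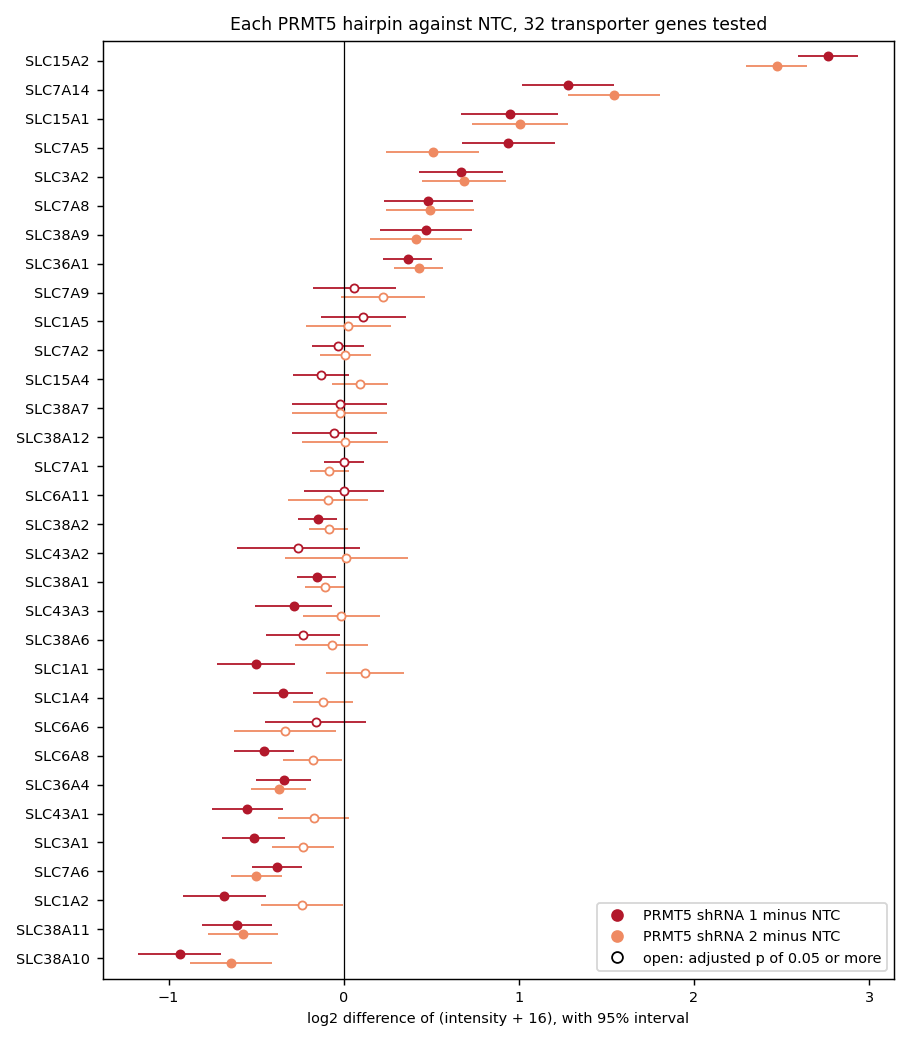
Log2 difference of (intensity + 16) against NTC shRNA (x axis) with its 95% interval for PRMT5 shRNA 1 (dark red) and PRMT5 shRNA 2 (orange), for the 32 carriers tested (rows), open points having an adjusted p of 0.05 or more. SLC15A2 stands farthest to the right at 2.77 and 2.47, SLC38A10 farthest to the left at −0.94 and −0.65, and SLC1A1 has −0.50 with shRNA 1 and 0.12 with shRNA 2.

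The hairpins were then compared directly, shRNA 2 minus shRNA 1, which leaves the NTC arrays out of the difference. Of 32 carriers, 8 differed, 6 higher and 2 lower with shRNA 2, where 25.7% of all genes tested were called, 18.3% higher and 7.38% lower. The share of carriers called, 25%, was near that of all genes. The arrays of the hairpins did not overlap for 22 carriers, 17 above and 5 below with shRNA 2, and for 63.5% of all genes tested, 41.3% above and 22.2% below. SLC1A1 (EAAT3), the glutamate, aspartate and cysteine carrier of epithelia and neurons, had the largest difference. It read 124.4 and 135.3 with shRNA 2, 78.6 and 78.7 with shRNA 1, and 109.2 and 127.0 with NTC shRNA, so that the shRNA 2 and NTC arrays overlapped while both shRNA 1 arrays were lower. The difference between the hairpins was 0.62 ± 0.10 (limma adjusted p = 0.00238), and it was called under all 15 alternatives.

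Higher with shRNA 2 were also SLC1A2 (0.44 ± 0.11), SLC43A1 (0.38 ± 0.09), SLC3A1 (0.28 ± 0.08), SLC6A8 (0.28 ± 0.08) and SLC15A4 (0.22 ± 0.07), with limma adjusted p between 0.0133 and 0.0431. As the mean over their probe sets, SLC1A2 (0.17; adjusted p = 0.148), SLC6A8 (0.11; adjusted p = 0.237) and SLC15A4 (0.09; adjusted p = 0.267) were not called. For SLC15A4 the arrays read 459.9 and 499.6 with shRNA 2, 395.5 and 420.9 with shRNA 1, and 443.7 and 452.6 with NTC shRNA, the hairpins lying on either side of the control. Lower with shRNA 2 were SLC7A5 (−0.43 ± 0.12; adjusted p = 0.0249) and SLC15A2 (−0.30 ± 0.08; adjusted p = 0.0193), whose arrays are given above. SLC7A5 passed the filter through the shRNA 1 arrays alone, the group where it was high, so its call here had help from the filter. With no filter its adjusted p was 0.0386. For SLC3A2, SLC7A8, SLC38A9, SLC36A1 and SLC15A1 the hairpins were not called different, and the 95% interval of the difference ran from −0.22 to 0.26 for SLC3A2 and from −0.08 to 0.20 for SLC36A1.

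Leaving out 1 array moved this count to between 1 and 7, with 3 without shRNA 1 replicate 1, 1 without shRNA 1 replicate 2 and 3 without shRNA 2 replicate 2. The 3′ to 5′ signal ratio of ACTB, a measure of how far RNA is degraded or reverse transcription runs, was 5.36 ± 0.51 with shRNA 2, 3.69 ± 0.28 with shRNA 1 and 4.73 ± 0.21 with NTC shRNA (SD, n = 2 each), while that of GAPDH was 1.22 with shRNA 2, 1.22 with shRNA 1 and 1.29 with NTC shRNA. Markers of other cell types were called higher with shRNA 2 than with shRNA 1 as well, as were 18.3% of all genes tested. They were KRT14 by 0.57 (limma adjusted p = 0.00813), CHGA by 0.59 (adjusted p = 0.0128), ENO2 by 0.45 (adjusted p = 0.00456) and COL1A1 by 0.54 (adjusted p = 0.0158). SYP was not called (0.19; adjusted p = 0.106). The luminal markers HOXB13 (0.37; adjusted p = 0.00677) and TRPM8 (0.20; adjusted p = 0.0151) were higher too, and no luminal marker was called lower. The ACTB ratio, these markers and the depth of PRMT5 knockdown moved with the difference between hairpins, and their part in it was not tested.

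Agreement among probe sets of 1 gene was examined over the 64 kept probe sets of the 32 carriers. Of the carriers, 19 had several, and in none were 2 probe sets called in opposite directions in any of the 4 comparisons. SLC7A1, the widely expressed arginine carrier CAT1, had probe sets that disagreed. Its brightest probe set read 2199.9 and 2175.6 with shRNA 2, 2258.4 and 2375.4 with shRNA 1, and 2287.9 and 2344.4 with NTC shRNA, and the hairpins differed by −0.08 (adjusted p = 0.266 over the kept probe sets). A dimmer probe set read 100.1 and 96.4 with shRNA 2, 181.4 and 198.5 with shRNA 1, and 146.2 and 127.3 with NTC shRNA, with both NTC arrays between the hairpins. There the hairpins differed by −0.85 (adjusted p = 4.25e-04), being 0.43 above NTC shRNA with shRNA 1 (adjusted p = 0.00535) and −0.42 from it with shRNA 2 (adjusted p = 0.0121).

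Another SLC7A1 probe set read 558.0 and 420.4 with shRNA 2, 662.1 and 772.0 with shRNA 1, and 494.6 and 484.0 with NTC shRNA, and the hairpins differed by −0.55 (adjusted p = 0.0072). For SLC6A8, 2 further probe sets gave −0.41 with shRNA 2 (adjusted p = 0.0102 and 0.00437), where the brightest gave −0.18 and was not called. For SLC3A1, a dimmer probe set gave −0.36 with shRNA 2 (adjusted p = 0.035), where the brightest gave −0.23. Which transcripts these probe sets read was not tested.

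**Figure D3:**
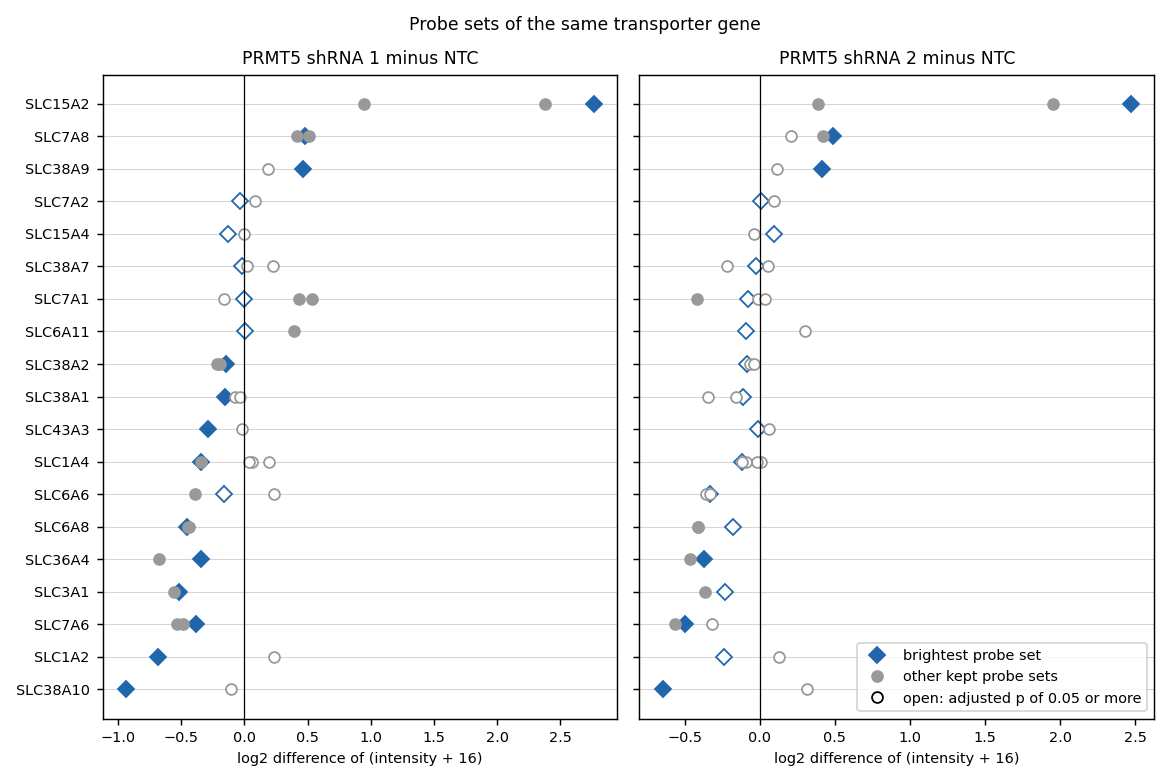
Log2 difference of (intensity + 16) against NTC shRNA (x axis) for every kept probe set of the 19 carriers that had several (rows), PRMT5 shRNA 1 in the left panel and PRMT5 shRNA 2 in the right. Blue diamonds are the brightest probe sets, grey circles the others, and open symbols have an adjusted p of 0.05 or more. The SLC7A1 circles reach 0.53 with shRNA 1 and −0.42 with shRNA 2, beside its diamonds near 0.

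Genes around the carriers were described by lists. The 26 genes of the amino acid response include ATF4 itself and EIF2AK4 beside targets of ATF4 and CHOP. Of these, 24 were tested, and 11 were higher and 3 lower with both hairpins averaged, with a median log2 difference of 0.16. Beside this and the lists that follow stand the 32.4% of all genes called in the same comparison, 15.4% higher and 17.0% lower. DDIT4, an inhibitor of mTORC1, read 1884.5 and 2129.4 with shRNA 1, 2003.9 and 1866.3 with shRNA 2, and 940.1 and 999.6 with NTC shRNA (1.01 ± 0.06; limma adjusted p = 4.32e-07). The stress-induced transcription factor ATF3 differed by 0.88 ± 0.11 (adjusted p = 1.67e-04) and the glutathione-degrading enzyme CHAC1 by 0.85 ± 0.10 (adjusted p = 1.21e-04). Both reached the array median in every knockdown array but not in both NTC arrays, so they passed the filter through the group where they were high. ATF4 (0.05; limma adjusted p = 0.587), ASNS (0.13; adjusted p = 0.124) and TRIB3 (0.16; adjusted p = 0.129) were not called, and the lower genes were ATF5, CBS and CTH. None of these was called with both hairpins: ATF5 was called with shRNA 2 alone, and CBS and CTH with shRNA 1 alone. The hairpins differed for CBS (shRNA 2 minus shRNA 1, 0.66; limma adjusted p = 0.0011) and for ATF5 (−0.30; adjusted p = 0.0301). With shRNA 1, 13 of the 24 genes were higher and 4 lower, where 39.3% of all genes were called. With shRNA 2, 8 were higher and 1 lower, where 21.4% were called. SLC7A11, the cystine carrier left out of the set, read 547.1 and 506.1 with shRNA 1, 334.7 and 400.4 with shRNA 2, and 136.6 and 134.7 with NTC shRNA (1.59 ± 0.08; limma adjusted p = 1e-07).

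Of 29 tested genes through which amino acids reach mTORC1, 6 were higher and 1 lower, a smaller share than the 32.4% of all genes, with a median of 0.01. MIOS, a subunit of the GATOR2 complex, read 719.0 and 720.7 with shRNA 1, 748.5 and 696.1 with shRNA 2, and 398.0 and 424.0 with NTC shRNA (0.79 ± 0.06; limma adjusted p = 2.60e-06). CASTOR2, a relative of the arginine sensor CASTOR1, differed by 0.60 ± 0.11 (adjusted p = 0.00225) and the leucine sensor SESN2 by 0.41 ± 0.09 (adjusted p = 0.0073). With shRNA 1 alone SESN2 was not called (0.275; limma adjusted p = 0.0662). Among 6 tested partners and trafficking factors, 4 were higher and 2 were not called. The higher ones were SGK1, a kinase that keeps carriers at the surface (0.58 ± 0.08; limma adjusted p = 3.73e-04), and BSG, the partner of monocarboxylate carriers (0.35 ± 0.10; adjusted p = 0.0243). So were NEDD4 (0.34 ± 0.09; adjusted p = 0.0127) and NEDD4L (0.31 ± 0.07; adjusted p = 0.0045), ubiquitin ligases that mark carriers for uptake into the cell. With shRNA 2 alone only SGK1 was called, and NEDD4 (0.30; adjusted p = 0.059) and NEDD4L (0.20; adjusted p = 0.084) were not.

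BSG read 425.1 and 425.0 with shRNA 1, 307.5 and 224.2 with shRNA 2, and 248.6 and 270.4 with NTC shRNA, where the shRNA 2 and NTC arrays overlapped and the hairpins differed by −0.66 (shRNA 2 minus shRNA 1; limma adjusted p = 0.00362). Of 10 tested amino acid carriers from other families, 2 were higher: the mitochondrial glutamate carrier SLC25A18 (0.61 ± 0.09; adjusted p = 4.93e-04) and the aromatic amino acid carrier SLC16A10 (0.26 ± 0.05; adjusted p = 0.00257). SLC16A10 was called with shRNA 2 (0.45; limma adjusted p = 2.23e-04) but not with shRNA 1 (0.06; adjusted p = 0.415), and the hairpins differed (adjusted p = 0.00155). Of 13 tested enzymes of amino acid metabolism, ASS1, which makes argininosuccinate on the way to arginine, was higher (0.74 ± 0.09; adjusted p = 8.26e-05). BCAT2, the mitochondrial branched-chain aminotransferase, was lower (−0.28 ± 0.08; adjusted p = 0.0232). It was called with shRNA 1 (−0.47; limma adjusted p = 0.00314) but not with shRNA 2 (−0.10; adjusted p = 0.504), and the hairpins differed (adjusted p = 0.0184). The other 11 were not called.

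**Figure D4:**
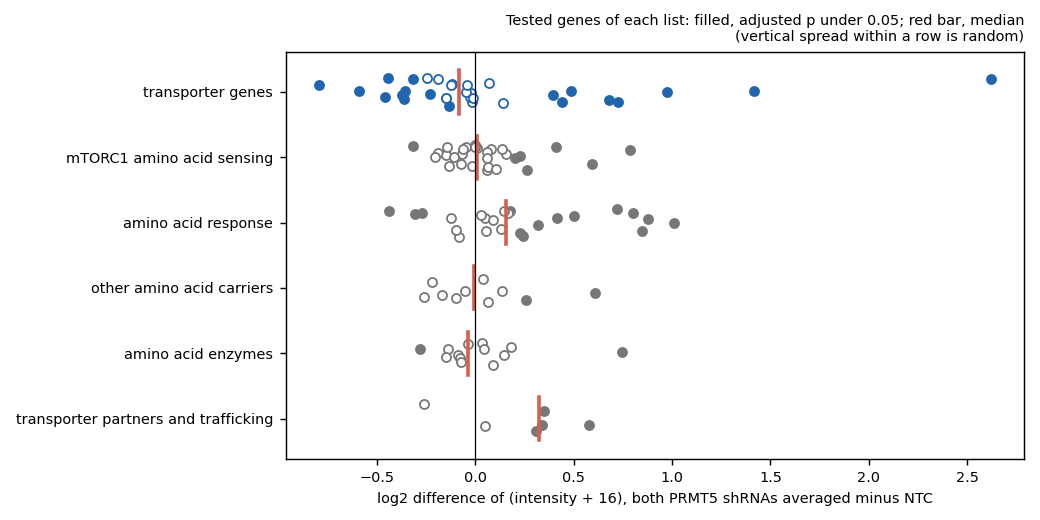
Averaged log2 difference of (intensity + 16), both PRMT5 hairpins minus NTC shRNA, for each tested gene (points, filled where the adjusted p is under 0.05) of the carriers and 5 lists, with the median as a red bar. The vertical spread within a row is random. The carriers run between −0.79 (SLC38A10) and 2.62 (SLC15A2), and the medians of the rows lie between −0.08 and 0.33.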

How the data were processed

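Total RNA of 6 VCaP samples was hybridised to 1-colour Affymetrix arrays. The deposited values are linear MAS5 intensities, 1 per probe set, as the authors normalized them; MAS5 is named per the submitters' processing notes. For its version, detection calls and later steps, the sources used here give nothing. The deposited table shows a trimmed mean of 150.01 to 150.02 in every array. The number of arrays limits the precision.

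Of 54675 probe sets, 41091 have 1 symbol in the platform annotation, 1801 several and 11721 none, beside 62 control probe sets; only those with 1 symbol were used. A probe set was kept if it reached the array median in at least 2 of 6 arrays, and each gene took its brightest kept probe set. Intensities were converted to log2(intensity + 16) and fitted with limma 3.58.1 (R 4.3.3) with an intensity trend, all 3 groups in 1 fit. The contrasts were both PRMT5 hairpins averaged against NTC shRNA, each hairpin against NTC shRNA, and shRNA 2 against shRNA 1. P-values were Benjamini-Hochberg adjusted over 12413 genes. The fit was tested on simulated data. Motifs were searched with Biostrings 2.70.1 in RefSeq promoters.

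The members and the gene lists were chosen with earlier results of these data known. By rule, the text gives array values for up to 15 called carriers at either end and up to 10 that differ between hairpins, for SLC3A1, SLC3A2 and their light chains, and up to 3 called genes of each list. Carriers named beyond it (SLC1A5, SLC38A2, SLC7A1 and others not called, and NEDD4L) were chosen after their values were seen. The alternatives were 2 other pseudocounts, 2 other filters on dim probe sets, leaving out probe sets that may match several transcripts (_x_at and _s_at), quantile normalization, the mean over probe sets, no intensity trend, a replicate block and leaving out each array; fitting every kept probe set alone was added after seeing the data.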

Additional observations from a re-analysis of the deposited data

Results flagged for a closer look

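For 8 carriers the effect of PRMT5 shRNA 2 differed from that of PRMT5 shRNA 1 in a direct limma test of the difference (shRNA 2 minus shRNA 1, log2). SLC1A1 differed by 0.62, SLC1A2 by 0.44, SLC43A1 by 0.38, SLC3A1 by 0.28, SLC6A8 by 0.28 and SLC15A4 by 0.22, all higher with shRNA 2. SLC7A5 differed by −0.43 and SLC15A2 by −0.30, both lower with shRNA 2. SLC7A5 passed the filter on dim probe sets only through the shRNA 1 arrays, where it was high, and with no filter its adjusted p was 0.0386. With 25.7% of all genes called in the same test, such a difference was common on these arrays. SLC1A1 kept its call under all 15 alternatives. SLC15A2 lost it without shRNA 2 replicate 1 (−0.26; adjusted p = 0.071), shRNA 1 replicate 1 (−0.27; adjusted p = 0.107) or shRNA 1 replicate 2 (−0.32; adjusted p = 0.075). The calls of SLC7A5 and SLC6A8 were lost without any one of the 4 knockdown arrays, with adjusted p of 0.0607 to 0.118 and of 0.0502 to 0.151. That of SLC3A1 was lost without shRNA 2 replicate 2 (0.16), shRNA 1 replicate 1 (0.31) or shRNA 1 replicate 2 (0.25). SLC1A2 was no longer called without shRNA 2 replicate 2 (0.32; adjusted p = 0.0779) or shRNA 1 replicate 2 (0.40; adjusted p = 0.09), and SLC43A1 without shRNA 1 replicate 2 (0.34; adjusted p = 0.0919). SLC15A4, the smallest of these differences, lost its call in 10 of the 15 alternatives. Other probe sets did not all show the difference. For SLC6A8, 2 further ones gave 0.03 and 0.02 (limma adjusted p = 0.829 and 0.855 over the kept probe sets). Others gave −0.11 for SLC1A2 (adjusted p = 0.495), −0.04 for SLC15A4 (adjusted p = 0.733) and 0.20 for SLC3A1 (adjusted p = 0.195). Those of SLC15A2 gave −0.43 and −0.56, both called. The −0.56 came from its dimmest probe set, which passed the filter only through the shRNA 1 arrays, where it was high. With a pseudocount of 1, SLC7A5 was not called (−0.77; adjusted p = 0.0665).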

How the results depend on the processing

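With both hairpins averaged, the count of carriers called, 18, ran between 13 and 20 over 15 alternatives, with 13 without NTC replicate 2. Against NTC shRNA it ran between 15 and 21 for shRNA 1 and between 9 and 14 for shRNA 2. For shRNA 2 against shRNA 1 it ran between 6 and 8 under the settings that kept all arrays and between 1 and 7 with 1 array left out, where the remaining array of a group is assumed to vary like the other groups. Among values of single carriers, 1249 stayed on their side of the threshold, 84 lost their call, and 10 gained one. Of values called in the first place 1 changed sign, SLC1A4 with shRNA 1, at 0.034 without _x_at and _s_at probe sets (adjusted p = 0.887), since another probe set is then read. Values not called changed sign in 20 cases, the largest reaching 0.153 in size. With the mean over probe sets, SLC38A10 (−0.16; adjusted p = 0.184) and SLC38A9 (0.26; adjusted p = 0.0691) lost their calls with shRNA 2. With SLC15A2 the averaged difference stayed called and between 1.82 and 2.78. The labels do not say whether arrays with the same replicate number were paired. Deviations of same-numbered arrays correlated at −0.09 for shRNA 1 and NTC, −0.18 for shRNA 2 and NTC and −0.00 for shRNA 2 and shRNA 1. Such correlations cannot show whether these arrays were handled together. With the replicate number as a block, 18 carriers were called with the hairpins averaged, 18 with shRNA 1, 13 with shRNA 2 and 7 between the hairpins. Intensities near the array median limit SLC7A5, SLC7A8, SLC7A9 and SLC7A14, whose differences depend most on the pseudocount.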

Other observations

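Of the SLC6 genes, SLC6A11 was called higher only through its dimmer probe set, which read 26.0 and 19.4 with shRNA 1, 20.3 and 20.3 with shRNA 2, and 13.7 and 13.2 with NTC shRNA (0.35 with the hairpins averaged; limma adjusted p = 0.0278 over the kept probe sets). That probe set reached the array median only in the knockdown arrays, where it was high, so its call had help from the filter. A dim SLC6A6 probe set read 23.4 and 27.0 with shRNA 1, 26.7 and 27.0 with shRNA 2, and 36.9 and 38.9 with NTC shRNA (−0.36; adjusted p = 0.0147), where the brightest was not called. A further SLC1A4 probe set read 251.8 and 240.4 with shRNA 1, 210.4 and 219.1 with shRNA 2, and 216.6 and 209.3 with NTC shRNA, above the control with shRNA 1 where the brightest probe set was below it, and it was not called (0.19; adjusted p = 0.0727 with shRNA 1).

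Among protein-coding genes in RefSeq order, SLC38A1, SLC38A2 and SLC38A4 follow each other on chromosome 12. With the hairpins averaged, SLC38A1 was called lower (−0.13), SLC38A2 was not called (−0.12) and SLC38A4 was below the filter. SLC38A4 read 6.2 and 4.2 with shRNA 1, 2.8 and 4.9 with shRNA 2, and 9.1 and 11.4 with NTC shRNA.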
